A study of Mus musculus with 4 samples.

Results

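The genes described here are 9 components of steroid hormone reception: the nuclear receptor genes Pgr, Esr1, Nr3c1 and Nr3c2, the membrane-associated progesterone receptor components Pgrmc1 and Pgrmc2, the FK506-binding co-chaperones Fkbp4 and Fkbp5, and the coactivator Ncoa2. They were chosen by gene symbol, with earlier results of these data known, and all 9 are among the 19991 genes of the deposited TPM table. The files identify them as ENSMUSG00000031870 (Pgr), ENSMUSG00000019768 (Esr1), ENSMUSG00000024431 (Nr3c1), ENSMUSG00000031618 (Nr3c2), ENSMUSG00000006373 (Pgrmc1), ENSMUSG00000049940 (Pgrmc2), ENSMUSG00000030357 (Fkbp4), ENSMUSG00000024222 (Fkbp5) and ENSMUSG00000005886 (Ncoa2). RNA was sequenced from whole uterus of mice on gestational day 4, from 2 wild-type controls and 2 knockouts of the genotype Prss29Cre/Cre;Pgrf/f, called Pgr gecKO. In the knockouts both copies of Prss29, a protease gene transcribed in uterine glands, carried Cre recombinase, and both copies of Pgr were flanked by loxP sites. The controls carried neither allele, so the effects of Cre, of the altered Prss29 locus and of the loss of Pgr cannot be told apart. The labels give no strain, age or number of animals per sample and do not say that replicates were separate animals, so p-values measure only the spread between these samples.

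Steroid receptors of this family are transcription factors that wait for hormone in a complex built around the chaperone HSP90, in which FKBP4 and FKBP5 compete for the same docking site. FKBP4 favours hormone binding and transport of the receptor, while FKBP5 lowers the affinity of the glucocorticoid and progesterone receptors for hormone and is itself a target gene of both. Before implantation, oestrogen acting through ESR1 drives growth of the uterine epithelium and induces Pgr, and progesterone acting through PGR then opposes that growth and prepares stroma and glands. Mice without Fkbp4 or without Ncoa2 in PGR-positive cells are known for failed implantation or decidualisation, and PGRMC1 and PGRMC2 are haem-binding membrane proteins linked to rapid progesterone effects.

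Levels of the genes were compared per gene length, as TPM, reads per gene length scaled to the library. Fkbp4 was the most abundant of the 9, with 435.6 and 424.7 TPM in control replicates 1 and 2 and 460.1 and 409.2 TPM in knockout replicates 1 and 2. Pgrmc1 stood at 300.8, 366.1, 383.7 and 484.7 TPM in the same order of libraries. The ranges of these 2 genes overlapped, and Fkbp4 was the higher of the pair in 3 of 4 libraries, so their order did not hold beyond the spread. Pgrmc2 followed at 133.2, 152.4, 131.1 and 102.6 TPM, above every value of Esr1.

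Esr1 stood at 65.4 and 64.3 TPM in the controls and at 66.8 and 51.0 TPM in the knockouts, and Pgr at 52.6 and 52.0 against 50.3 and 49.0 TPM. Esr1 was higher than Pgr in 4 of 4 libraries, although the lowest Esr1 value lay below the 2 control values of Pgr. Nr3c1, the glucocorticoid receptor gene, had 24.7, 25.7, 27.0 and 24.2 TPM, and Fkbp5 had 26.0, 28.5, 25.3 and 21.7 TPM. Each of these last 2 genes was the higher in 2 of the 4 libraries, so they could not be ranked. Ncoa2 was lower, at 16.8, 21.4, 17.3 and 14.1 TPM. Nr3c2, the mineralocorticoid receptor gene, was by far the lowest, at 1.79 and 1.496 TPM in the controls and 2.38 and 2.08 TPM in the knockouts. By mean TPM, Fkbp4 and Pgrmc1 lay at percentiles 98.7 and 98.6 of the deposited genes, Esr1 and Pgr at 85.2 and 81.7, and Nr3c2 at 15.3.

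**Figure D1:**
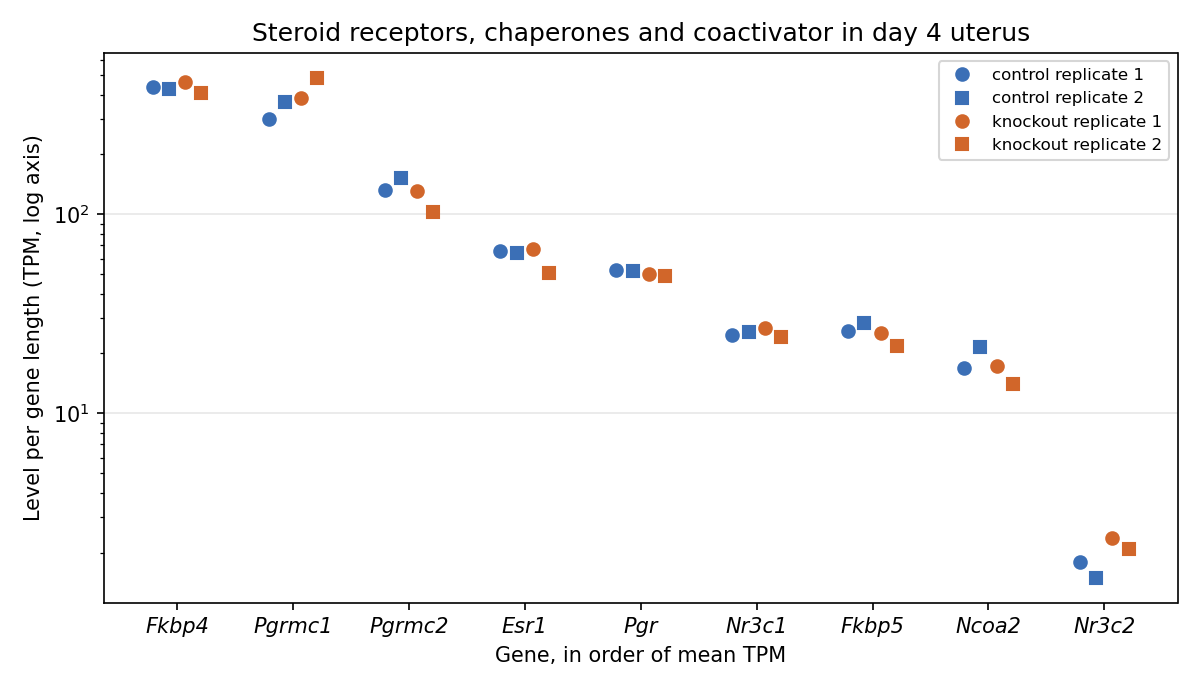
Level per gene length (TPM, log axis) of the 9 genes in each library, ordered by mean TPM; blue points are controls, orange points knockouts, circles replicate 1 and squares replicate 2. The genes span from 1.496 TPM (Nr3c2, control replicate 2) to 484.7 TPM (Pgrmc1, knockout replicate 2), and for most genes the 4 points lie close together.

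The windows around the transcription start of 7 of the genes (Pgr, Esr1, Nr3c2, Pgrmc1, Pgrmc2, Fkbp4 and Fkbp5) were taken from RefSeq, build GRCm38.p6, whereas the counts are on GRCm39. Each window runs from 250 bases before to 50 after the start, and Esr1 has 2 windows. They are shown for 3 genes: that of Pgr as the targeted gene, that of Fkbp5 as a known target of these receptors, and that of Pgrmc1 as the gene with a match to one arm of the hormone element. Capitals mark 3 short elements, each on either strand. The first is the GC box, GGGCGG, the site of SP1-type factors. Another is the CCAAT box of promoters. The last is a single arm of the hormone element, spelled AGAACA. The Pgr window is chr9:8899583-8899882 on the plus strand, that of Fkbp5 chr17:28486100-28486399 on the minus strand and that of Pgrmc1 chrX:36597943-36598242 on the plus strand.
Pgr: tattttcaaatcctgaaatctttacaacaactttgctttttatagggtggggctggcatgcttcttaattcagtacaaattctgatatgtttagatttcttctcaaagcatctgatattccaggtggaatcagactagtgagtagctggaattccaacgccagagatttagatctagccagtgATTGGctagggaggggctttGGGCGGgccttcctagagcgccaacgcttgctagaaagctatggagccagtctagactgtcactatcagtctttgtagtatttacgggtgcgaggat
Fkbp5: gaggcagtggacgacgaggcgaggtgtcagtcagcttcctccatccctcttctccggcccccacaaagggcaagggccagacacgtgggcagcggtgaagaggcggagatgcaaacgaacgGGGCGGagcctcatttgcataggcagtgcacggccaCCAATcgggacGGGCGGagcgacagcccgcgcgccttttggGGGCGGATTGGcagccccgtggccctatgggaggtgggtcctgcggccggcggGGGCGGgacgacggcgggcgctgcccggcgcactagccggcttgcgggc
Pgrmc1: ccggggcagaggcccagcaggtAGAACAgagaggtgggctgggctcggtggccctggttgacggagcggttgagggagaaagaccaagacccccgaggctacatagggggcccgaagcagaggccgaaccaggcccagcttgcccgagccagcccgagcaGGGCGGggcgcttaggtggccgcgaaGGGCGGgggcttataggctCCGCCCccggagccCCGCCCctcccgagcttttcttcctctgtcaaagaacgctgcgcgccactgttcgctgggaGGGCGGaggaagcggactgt

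The Pgr window had 1 GC box at position −47 and a G+C content of 43.7%, below the median of 52.7% over the 32851 windows searched. These windows leave out a whole chromosome, and Nr3c1 and Ncoa2 had no window among them. The Fkbp5 and Pgrmc1 windows were rich in G+C, at 70.7% and 69.0%, with 32 and 24 CpG dinucleotides against 6 in Pgr. GC boxes were present in 6 of the 7 genes, all but Esr1, and in 35.7% of all windows. CCAAT boxes were present in all of the 7 but Pgrmc1 and in 37.4% of all windows. The full palindrome that PGR, NR3C1 and NR3C2 bind, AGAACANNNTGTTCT, was in none of the windows of the 7 genes and in 0.00913% of all windows. Its single arm, AGAACA, which is contained in the full element, was found once, in Pgrmc1 at position −228, and in 19.0% of all windows. Neither the full oestrogen element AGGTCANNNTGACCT nor its single arm AGGTCA was in these windows, against 0.0213% and 16.3% of all. Each letter pattern was searched on both strands, and its presence or absence says nothing about binding at or outside these windows.

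Pgr itself, the targeted gene, did not pass the test in whole uterus. Its normalised counts were 140.5 and 138.6 CPM (reads per library after TMM scaling) in the controls, against 130.1 and 146.2 CPM in the knockouts. The knockout values lay on either side of the controls. The log2 fold change, knockout over control, was −0.02 (SE 0.21, 95% interval −0.52 to 0.49) and the interval corresponds to folds from 0.697 to 1.41 (edgeR quasi-likelihood test, adjusted p = 1.0 over all genes). In TPM, which scales each library differently, both knockout values lay below both controls. The count covers the whole gene in every cell type of the uterus. Stroma, muscle and luminal epithelium are also known to transcribe it, and no count of the deleted exons was analysed here, so loss of Pgr within glands was not checked. In bulk tissue fewer cells of a type and less RNA per cell cannot be told apart. Counts of Prss29, into which Cre was placed, were 1524 and 190 in wild-type uterus and 0 in each knockout.

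Across the receptor genes no difference passed. Esr1 had 279.2 and 274.0 CPM in the controls and 276.3 and 243.5 CPM in the knockouts, a log2 fold change of −0.09 (SE 0.24, 95% interval −0.65 to 0.47). Its lowest value was that of knockout replicate 2, and the other knockout lay between the controls. Without knockout replicate 2 the log2 fold change was 0.002. Nr3c1 had 59.3, 61.5, 62.8 and 65.0 CPM, so that both knockouts lay above both controls by a margin of a few percent (log2 fold change 0.08, SE 0.20, 95% interval −0.39 to 0.55). In TPM the 2 groups of Nr3c1 overlapped.

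Nr3c2 showed the largest fitted difference of the 9. Its 4 libraries held 126 and 106 counts (controls) and 154 and 132 counts (knockouts), or 3.63, 3.02, 4.66 and 4.71 CPM. Both knockouts were above both controls on this scale and in TPM. The log2 fold change was 0.49 (SE 0.37), and the 95% interval of −0.39 to 1.38 included 0. The ratio of the summed normalised counts was 1.41, with an exact binomial interval of 1.18 to 1.68 that covers counting error only. The interval of the fit, which shares its estimate of spread across genes, ran from 0.764 to 2.59 as a fold. The adjusted p was 1.0 and the unadjusted p 0.226.

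Among the membrane-associated components the 2 paralogs went in opposite directions without passing. Pgrmc1 had 174.5 and 212.0 CPM in the controls and 215.6 and 314.3 CPM in the knockouts. The highest control and the lowest knockout were nearly equal, and knockout replicate 2 stood apart at the top. The log2 fold change was 0.46 (SE 0.28, 95% interval −0.21 to 1.12, unadjusted p = 0.150, edgeR quasi-likelihood test). It was 0.16 without knockout replicate 2, a value smaller by more than 1.5 times, and 0.70 without knockout replicate 1. Pgrmc2 had 134.9 and 154.1 CPM in the controls and 128.6 and 116.1 CPM in the knockouts, with no overlap (log2 fold change −0.24, SE 0.22, 95% interval −0.76 to 0.28), and the value was −0.14 without control replicate 2.

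Neither co-chaperone gene passed. Fkbp4 had 380.4, 370.2, 389.1 and 399.4 CPM (log2 fold change 0.07, SE 0.25, 95% interval −0.52 to 0.66). Its replicates differed by 0.04 on the log2 scale in each group, and 0.698% of well-expressed genes (mean of 5 CPM or more) had a smaller difference between replicates. Both knockouts were above both controls in CPM, but in TPM the groups overlapped. Fkbp5 had 76.6 and 83.7 CPM in the controls and 72.0 and 71.5 CPM in the knockouts, lower in both on either scale (log2 fold change −0.16, SE 0.20, 95% interval −0.63 to 0.31). Without control replicate 2 it was −0.095. Ncoa2, which encodes a p160 coactivator that bridges the receptor to histone acetyltransferases, had 82.3 and 104.6 CPM in the controls and 81.7 and 76.9 CPM in the knockouts. Its log2 fold change was −0.24 (SE 0.22, 95% interval −0.76 to 0.29). Control replicate 1 and knockout replicate 1 were almost the same, and without control replicate 2 the value was −0.06 and without control replicate 1 it was −0.385.

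**Figure D2:**
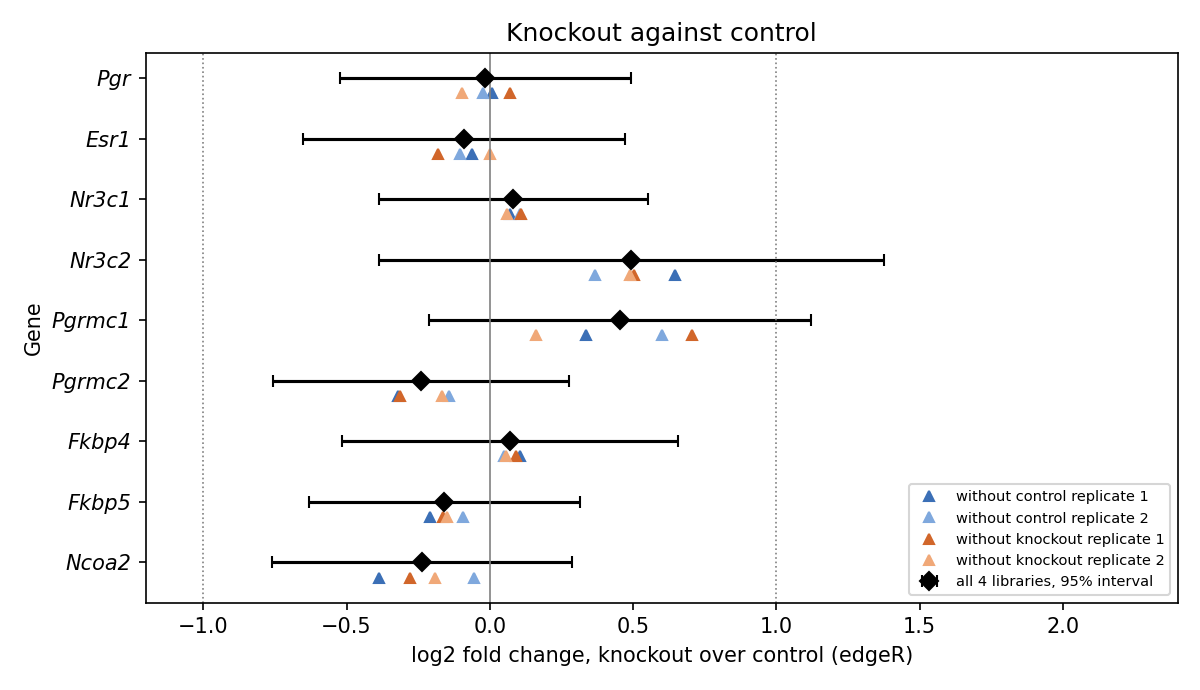
Fitted log2 fold change, knockout over control, of the 9 genes; diamonds with bars are the estimate from all 4 libraries with its 95% interval, triangles the estimate with 1 library left out, and dotted lines mark a 2-fold difference. Every interval includes 0, and only those of Nr3c2 (upper bound 1.38) and Pgrmc1 (1.12) cross a dotted line.

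Of the 9 genes, 0 passed at an adjusted p of 0.05 in edgeR and 0 had an unadjusted p under 0.05, against 0.00477% and 3.01% of the 20950 genes tested. At the latter threshold 1.22% of all genes were higher and 1.79% lower in the knockout. DESeq2 and limma-voom also gave 0 of 9 at either threshold, while over all genes they called 0.392% and 0.0%. The 95% interval lay within a 2-fold difference in either direction for 7 of the 9, as it did for 45.6% of all genes tested and 70.8% of those averaging 5 CPM or more. The median log2 fold change of the 9 was −0.02, and that of all genes tested was 0.01. The size of the difference was below that between the 2 replicates of one group for 4 of the 9.

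In CPM the 2 groups did not overlap for 7 of the 9 genes, 4 higher and 3 lower in the knockout, against 25.3% of all genes tested (12.2% higher and 13.1% lower). That count depended on the scaling. It was 7 with RLE factors, 6 with upper-quartile factors and 5 in the deposited TPM, where 23.8% of genes did not overlap. On all 4 scalings Nr3c2 and Pgrmc1 were higher and Pgrmc2 and Fkbp5 lower in both knockouts. The share of all genes without overlap on all 4 scalings was not computed, and none of these 4 genes passed the test. Nr3c1, Fkbp4, Ncoa2 and Pgr changed their overlap with the scaling. In 8 of the 9 genes the larger difference between replicates was below the median of well-expressed genes (mean of 5 CPM or more), which was 0.44 on the log2 scale.

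Ratios of related genes within a library do not depend on how libraries are scaled. Pgr stood at 0.804 and 0.809 of Esr1 in the controls and at 0.753 and 0.960 in the knockouts, in TPM. The knockouts lay on either side of the controls (mean log2 difference 0.08), and without knockout replicate 2 the difference was −0.10. Nr3c1 exceeded Nr3c2 by 13.8 and 17.2 times in the controls and 11.4 and 11.7 times in the knockouts, a log2 difference of −0.42. Fkbp4 exceeded Fkbp5 by 16.8 and 14.9 times in the controls and by 18.2 and 18.8 times in the knockouts, a log2 difference of 0.23. Pgrmc1 exceeded Pgrmc2 by 2.26 and 2.402 times in the controls and by 2.93 and 4.73 times in the knockouts, a log2 difference of 0.68. The last 3 ratios did not overlap between groups. Each had p = 0.333 in a two-sided exact permutation test, the smallest value that 2 against 2 samples allow (0.444 adjusted over the 4 ratios), and the first had p = 1.0 in the same exact test. Without knockout replicate 2 the difference for Pgrmc1 to Pgrmc2 was 0.33, and without knockout replicate 1 it was 1.02. Without control replicate 2 that for Nr3c1 to Nr3c2 was −0.26 and that for Fkbp4 to Fkbp5 was 0.145.

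**Figure D3:**
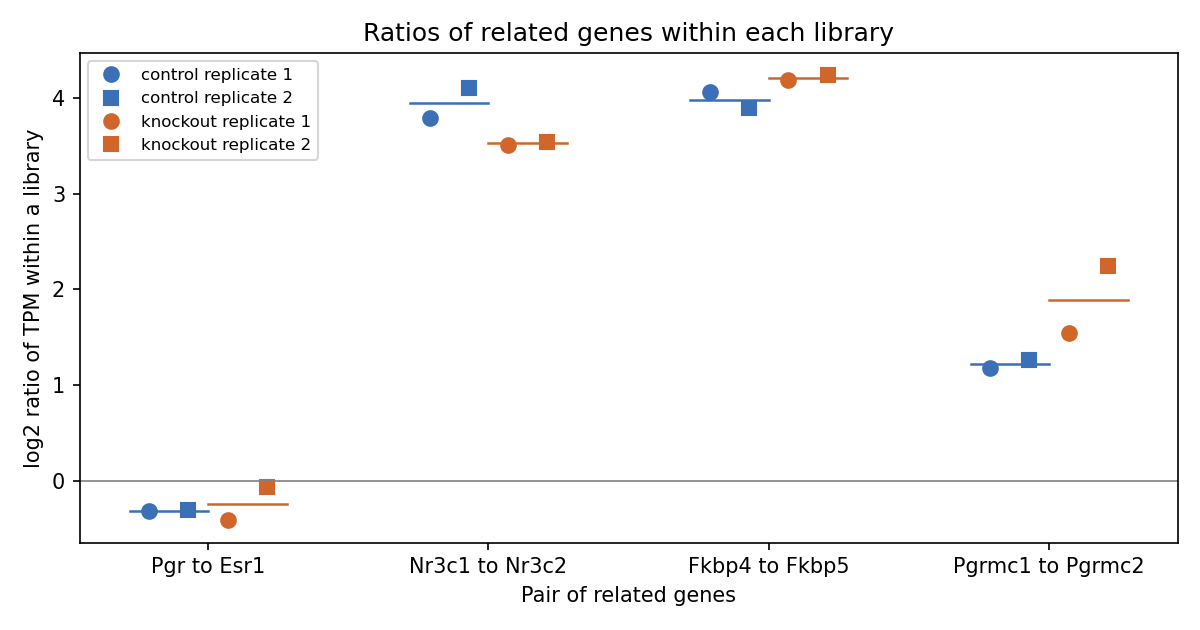
Log2 ratio of TPM between related genes within each library; points are libraries (blue controls, orange knockouts, circles replicate 1, squares replicate 2) and short lines are group means. The groups separate for Nr3c1 to Nr3c2, Fkbp4 to Fkbp5 and Pgrmc1 to Pgrmc2, and knockout replicate 2 stands apart for Pgr to Esr1 (−0.06) and for Pgrmc1 to Pgrmc2 (2.24).

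Marker sums of several cell types differed between replicates, and some between groups. Epithelial, stromal and smooth muscle markers were abundant throughout, with summed levels of 1739 to 2260 CPM over 9 pan-epithelial genes and 5693 to 10464 CPM over 9 stromal genes. Smooth muscle markers (9 of 9 tested) summed to 7337 and 2386 CPM in the controls and to 6036 and 9696 CPM in the knockouts. The B and plasma cell markers (5 of 7 tested) summed to 205.5 and 205.8 CPM in wild-type uterus and to 38.75 and 47.76 CPM in the knockouts, most of it from the antibody genes Igkc and Jchain. Igkc had a log2 fold change of −2.44 (adjusted p = 0.0613 in edgeR) and Jchain of −2.22 (adjusted p = 0.216), while Cd79a and Cd79b stood at 0.21 and 0.39. Gland markers (10 of 10) summed to 241.6 and 196.0 against 117.1 and 127.2 CPM. That sum includes Prss29, which the Cre allele disrupts, and without it the other 9 gave 197.8 and 190.6 against 117.1 and 127.2 CPM. Not all gland markers were lower: Cxcl15 and Aldh1a1 had log2 fold changes of 0.67 and 0.72 (unadjusted p = 0.106 and 0.0444 in edgeR). Macrophage markers (8 of 8) summed to 535.6 and 692.0 against 379.5 and 432.3 CPM. Adipocyte markers (4 of 6) were at 0.202, 4.30, 0.0302 and 29.6 CPM, and Adipoq had 0 counts in control replicate 1 and knockout replicate 1. In CPM, knockout replicate 2 had the highest Pgr, Nr3c1, Nr3c2, Pgrmc1 and Fkbp4 and the lowest Esr1, Pgrmc2, Fkbp5 and Ncoa2. On that scale it was thus at an edge for each of the 9 genes, though both knockouts nearly coincided for Nr3c2 and Fkbp5. In TPM it was instead the lowest for Pgr (49.0), Nr3c1 (24.2) and Fkbp4 (409.2). For Nr3c2 it lay below knockout replicate 1 in TPM (2.08 against 2.38). The share of all genes with knockout replicate 2 at an edge was not computed. That library also had the highest muscle and adipocyte sums. The part of these cells in the values above was not tested. Total counts ran from 29932153 to 35149834 per library.

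No gene of the receptor's chaperone machinery passed either. Of 22 tested members, 0 passed in edgeR and 0 had an unadjusted p under 0.05, and their median log2 fold change was 0.04. Hsp90ab1, one of the 2 cytosolic HSP90 genes, was the most abundant, at 2550 and 2195 TPM in the controls and 2681 and 2031 TPM in the knockouts. Hspa8, the constitutive HSP70 that loads the receptor, had 1253, 895.5, 844.8 and 1243 TPM. Control replicate 1 and knockout replicate 2 were the high libraries for Hspa8, so replicates differed more than groups. The inducible HSP70 genes Hspa1a and Hspa1b had the smallest p of the list, with log2 fold changes of 0.71 (SE 0.38) and 0.49 (SE 0.26) and unadjusted p of 0.109 and 0.106 (edgeR quasi-likelihood test). Leaving out control replicate 2 gave 0.31 and 0.28, leaving out knockout replicate 2 gave 0.44 and 0.29, and leaving out control replicate 1 gave 1.27 and 0.745. These 2 are near-identical copies, and abundant chaperone genes have many pseudogenes, so the split of reads among them is uncertain.

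By mean TPM, Fkbp4 was the most abundant of the 14 FK506-binding protein genes with a TPM value. Fkbp1a, which encodes the founding member of the family and the main binder of the drug FK506, had 416.2, 292.1, 331.0 and 320.2 TPM, and Fkbp9, of the endoplasmic reticulum, 289.9, 172.4, 206.6 and 223.0 TPM. Among 11 tested genes of this list 0 passed and 0 reached an unadjusted p of 0.05 in edgeR, with a median of −0.04. The smallest p belonged to the mitochondrial Fkbp8 (log2 fold change 0.18, SE 0.23) and the endoplasmic reticulum member Fkbp14 (−0.31, SE 0.40).

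Ncoa2 and the other p160 coactivator genes had similar levels. Ncoa1 stood at 18.4, 19.6, 19.4 and 12.7 TPM, higher than Ncoa2 in 2 of the 4 libraries. Ncoa3 stood at 23.4, 27.5, 26.6 and 20.2 TPM, above Ncoa2 in 4 of 4 libraries although the ranges overlapped. Of 18 tested coactivators and corepressors 0 passed and 0 had an unadjusted p under 0.05 in edgeR (median −0.06). The RNA helicase coregulators Ddx5 and Ddx17 were the most abundant, with 537.3 to 635.5 and 327.6 to 440.5 TPM over the 4 libraries. Ncoa7 and the prohibitin Phb2, which represses oestrogen receptor activity, had log2 fold changes of 0.24 (SE 0.23) and 0.28 (SE 0.28). Without knockout replicate 2 these were 0.037 and −0.034, and without knockout replicate 1 they were 0.42 and 0.54.

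Next to Pgrmc1 and Pgrmc2, the seven-pass membrane progesterone receptors of the PAQR family were scarce. Paqr8 was their most abundant member, with a mean of 21.4 TPM. Per library it had 65.2 and 32.1 CPM (controls) and 24.9 and 26.2 CPM (knockouts). Both knockouts lay below both controls, but control replicate 1 stood far above control replicate 2. The log2 fold change was −0.93 (SE 0.35, unadjusted p = 0.0330, adjusted p = 1.0, edgeR quasi-likelihood test), and −0.31 without control replicate 1. Paqr5 and Paqr7 ranged from 5.21 to 7.95 and from 4.05 to 8.80 TPM, and Paqr6 had 1.10, 1.204, 2.02 and 1.60 TPM. The PGRMC1 partner gene Serbp1 had 109.3, 84.3, 86.2 and 70.2 TPM, and Cyb5r3, a cytochrome b5 reductase, 276.8, 433.2, 380.1 and 317.9 TPM. In this list of 10, 0 passed and 1 had an unadjusted p under 0.05 in edgeR, against 3.01% of all genes tested. The median was −0.03 (−0.31 without knockout replicate 2).

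For the other nuclear oestrogen receptor gene, Esr2, the controls gave 0 and 3 counts and the knockouts 3 and 0. Esr2 did not pass the low-count filter, so of Esr1 and Esr2 only Esr1 was tested. Of 27 tested other nuclear receptors 0 passed and 1 had an unadjusted p under 0.05 in edgeR (3.01% of all genes tested), with a median of 0.10. That gene was Rora, an orphan receptor tied to the circadian clock, with 33.6 and 30.4 CPM in the controls and 22.2 and 16.4 CPM in the knockouts (log2 fold change −0.73, SE 0.26, adjusted p = 1.0 in edgeR). Nr5a2, a receptor needed for decidualisation, had 11.2, 8.52, 8.92 and 4.88 CPM. The COUP-TF genes Nr2f2 and Nr2f6 were the most abundant, and Nr2f2, a progesterone-dependent gene of the stroma, had 107.3, 119.6, 153.0 and 85.1 TPM.

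Enzymes that set the local hormone supply differed widely in level. Hsd11b2, which inactivates glucocorticoids and so keeps them from the mineralocorticoid receptor, had 337.6 and 445.1 TPM in the controls and 551.1 and 347.2 TPM in the knockouts. Hsd11b1, which works in the opposite direction, had 2.06, 1.40, 0.964 and 2.76 TPM. Hsd11b2 thus far exceeded both Hsd11b1 and Nr3c2 in every library. Among 14 tested enzymes 0 passed and 0 had an unadjusted p under 0.05 in edgeR. The list had the highest median of the 10, 0.27, but leaving out control replicate 2 gave −0.08 and leaving out knockout replicate 2 gave −0.04. Hsd17b10, a mitochondrial dehydrogenase, had 170.4, 148.2, 188.4 and 257.4 TPM (log2 fold change 0.56, SE 0.27), and Akr1c14, which reduces progesterone metabolites, had a log2 fold change of 0.54 (SE 0.36). Both rested on knockout replicate 2, without which they were 0.20 and −0.034, and they were 0.86 and 0.95 without knockout replicate 1.

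**Figure D4:**
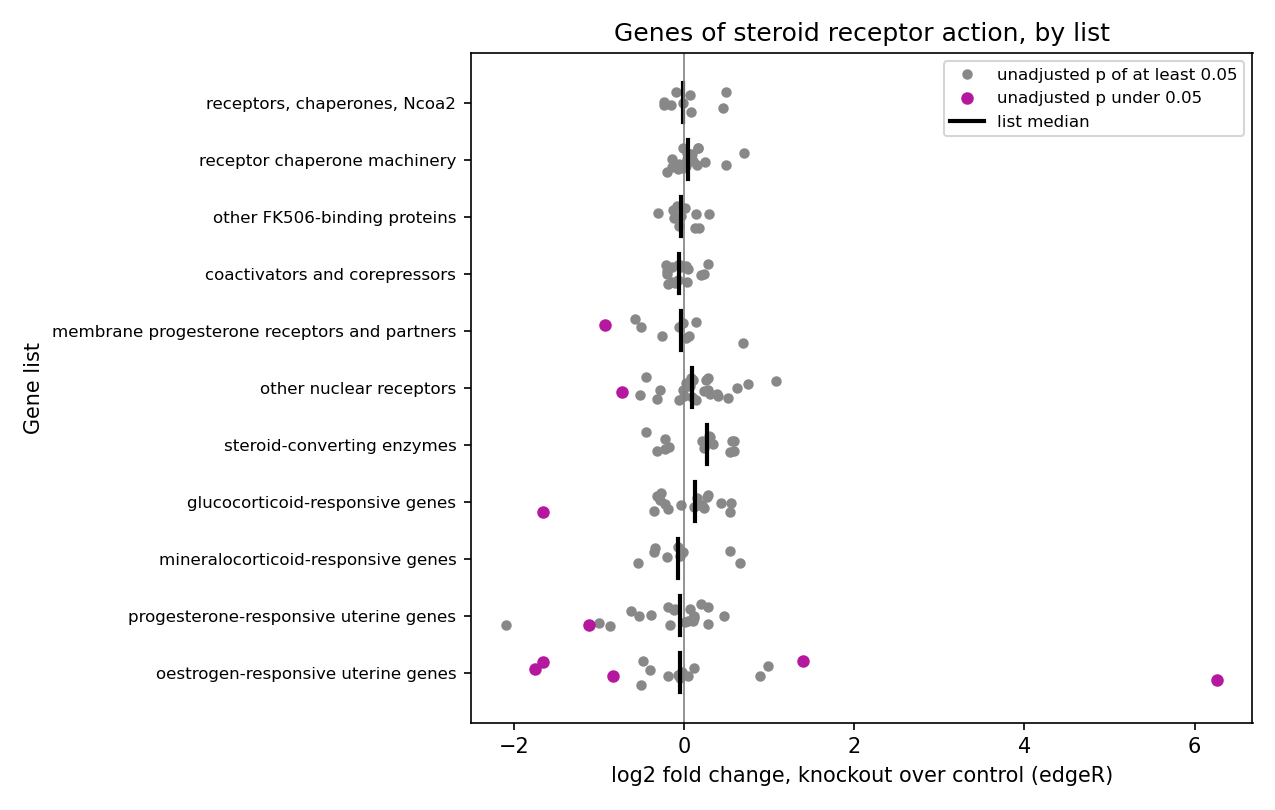
Log2 fold change, knockout over control, of each tested gene in the 9 genes described here and in 10 lists of genes around them; grey points have an unadjusted p of at least 0.05, magenta points a smaller one, and black bars are list medians. List medians lie between −0.07 and 0.27, and the point at 6.26 is Clca1, which has few counts in the controls.

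Genes known to respond to these receptors were read in the same fit. Among 18 glucocorticoid-responsive genes 0 passed and 1 had an unadjusted p under 0.05 in edgeR, against 3.01% of all genes tested. The median was 0.13, or −0.19 when knockout replicate 1 was left out and −0.007 when control replicate 1 was. Tsc22d3, also called Gilz and induced by both corticosteroid receptors, had 109.4 and 139.0 CPM in the controls and 163.7 and 198.1 CPM in the knockouts (log2 fold change 0.54, SE 0.24, unadjusted p = 0.0621). Fkbp5, a target of the same receptors, stood lower in the knockouts, so these 2 genes did not go one way. Angptl4, a lipase inhibitor gene, had a log2 fold change of 0.55 (SE 0.25), or 0.31 without knockout replicate 2. The metallothionein genes Mt1 and Mt2 were the most abundant, and for both the lowest library was knockout replicate 2, at 285.7 and 389.9 TPM. The gene with the unadjusted p was Lcn2, which encodes an iron-carrier protein, with 9.99 and 12.5 CPM in the controls and 3.69 and 3.46 CPM in the knockouts (log2 fold change −1.65, SE 0.33, adjusted p = 0.614 in edgeR and 0.00637 in DESeq2).

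Of 9 tested mineralocorticoid-responsive genes 0 passed and 0 had an unadjusted p under 0.05 in edgeR, with a median of −0.07 (−0.30 without knockout replicate 1). Scnn1b, a subunit of the epithelial sodium channel, had 8.78 and 16.4 CPM in the controls and 22.9 and 16.7 CPM in the knockouts. For Atp1b1, a sodium pump subunit gene, the log2 fold change was −0.07 (SE 0.50). Its level differed widely between the 2 controls, at 183.5 and 550.7 CPM.

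Among 22 progesterone-responsive uterine genes 11 had a log2 fold change above 0 and 11 below it. In edgeR 0 passed, and the unadjusted p was under 0.05 for 1 (3.01% of all genes tested). That gene was Wnt4, a ligand of decidualisation, with 8.20 and 7.81 CPM in the controls and 4.90 and 2.46 CPM in the knockouts (log2 fold change −1.12, SE 0.43, adjusted p = 1.0), and −0.705 and −1.70 without knockout replicates 2 and 1. Lrp2, a receptor of the apical epithelial surface, had 472.1 and 1020 CPM in the controls and 463.7 and 353.4 CPM in the knockouts. Alox15, a lipoxygenase gene, had 1456, 406.7, 296.4 and 1122 CPM, so that the replicates of each group differed far more than the groups. Hoxa11, a stromal gene, had 350.2, 358.7, 412.7 and 347.0 CPM. The list's median was −0.05, which became 0.11, −0.23 and 0.08 on leaving out control replicate 1, knockout replicate 1 and knockout replicate 2.

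Of 17 tested oestrogen-responsive genes 0 passed in edgeR, 2 were higher and 3 lower at an unadjusted p under 0.05 (1.22% and 1.79% of all genes tested), and the median was −0.05 (−0.33 without control replicate 2). Clca1, a chloride channel accessory gene, rested on 5 and 44 control counts against 2445 and 961 knockout counts (adjusted p = 0.216 in edgeR, and 0.00147 in DESeq2). Lcn2 belongs to this list as well. Of the 2 most abundant genes, complement C3 had 457.5 and 112.0 CPM in the controls and 159.5 and 247.9 CPM in the knockouts, while Igf1, the stromal growth factor, had 471.8, 519.6, 507.6 and 471.0 CPM. Over the 10 lists, 163 distinct genes were tested and 4.91% had an unadjusted p under 0.05 in edgeR, 2 of them higher and 6 lower. The share over all genes tested was 3.01%. Because the lists were chosen with earlier results of these data known, the difference between these shares tests nothing.

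The listed genes whose values followed Pgr most closely over the 4 libraries were the kinase gene Wnk1, the acetyltransferase gene Kat2b and the HSP90-binding cyclophilin gene Ppid. Their root mean square distances from Pgr in centred log2 CPM were 0.03, 0.03 and 0.04, against a median of 0.21 over all genes averaging 5 CPM or more. Near Esr1 were Fkbp2 and Ep300, at 0.03 and 0.04 (median over all genes 0.23), and the nearest to Fkbp5 were Cdkn1a, Nfkbia and Ep300, at 0.03, 0.045 and 0.06 (median 0.23). Each was chosen as among the nearest of 147 listed genes over 4 libraries, so small distances follow from the choice and test nothing.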

How the data were processed

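The 4 whole-uterus samples were profiled by RNA sequencing. Per the labels, total RNA was extracted and made into NEBNext Ultra II libraries. Per the series' design text, base calls were converted with bcl2fastq 2.17, and per the submitters' processing notes reads were handled with Trimmomatic, STAR and featureCounts on GRCm39. The sources used here give no versions of these 3 tools, annotation release or strand setting, so overlapping, antisense and near-identical genes are uncertain. The authors deposited whole-number counts for 57186 genes with lengths, and TPM for 19991 of them. The deposited TPM equal count over length rescaled within those genes, to within 3.8e-11, and the counts in the 2 tables are identical.

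The main test was the edgeR 4.0.16 quasi-likelihood test (R 4.3.3) on the counts with TMM factors and filterByExpr (minimum count 10), which kept 20950 genes, with p-values adjusted by Benjamini-Hochberg over all of them. The procedure was also run on simulated counts, drawn independently for each gene and library. Such counts carry no shared difference between replicates, so that run does not vouch for these data. Alternatives were RLE and upper-quartile factors, no or a stricter low-count filter (1 CPM in every sample), DESeq2 1.42.0, limma 3.58.1 with voom or on log2(TPM + 1), the replicate number as a block, and leaving out each sample.

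The gene lists, like the 9 genes, were chosen with earlier results of these data known. Named from each list are the 2 genes with the smallest p and the 2 with the highest mean TPM, and others (Paqr5, Paqr7, Ncoa1, Ncoa3, Hsd11b1, Esr2, Ltf and the marker genes) were named after their values were seen. Nearest genes are the 3 closest of the listed genes averaging 5 CPM or more. One gene that these rules name is not reported here.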

Additional observations from a re-analysis of the deposited data

How the results depend on the processing

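All 9 genes stayed short of the threshold under all 13 alternatives (smallest adjusted p 0.611, for Pgrmc1 without knockout replicate 1). Of 117 recomputed log2 fold changes 3 turned sign, all near 0: Pgr to 0.009 and 0.069 without control replicate 1 and knockout replicate 1, and Esr1 to 0.002 without knockout replicate 2 (leave-one-out ranges −0.098 to 0.069 and −0.182 to 0.002). The log2 difference of Pgr to Esr1 ranged from −0.10 to 0.25 with 1 library left out.

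Over all genes, the main test called 1 gene higher and 0 lower. Higher and lower calls were 35 and 19 with no low-count filter, 44 and 46 with DESeq2, 22 and 10 with the replicate block and 22 and 15 with a crossed replicate block (control 1 with knockout 2), a pairing chosen after seeing the data. The stricter filter and limma-voom called 0 higher, and limma on log2(TPM + 1) called 3 higher. With 1 library left out, calls ranged from 10 to 39 higher and from 4 to 22 lower. Of the listed genes, the main test called 0, DESeq2 called 2 (Clca1 and Lcn2), no filter, the replicate block and the crossed block each called 1 (Clca1), and leaving out a library called 1 to 2 (Clca1, and Ltf without control replicate 2). The replicate block changed the call of no other listed gene. No label pairs the same-numbered samples. Their deviations from the group means tended to go opposite ways (correlation −0.444 over genes, and −0.507 over those averaging 5 CPM or more).

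Leaving out 1 library turned the log2 fold change of other named genes that did not pass, with ranges of Hsp90ab1 −0.069 to 0.165, Hspa8 −0.389 to 0.374, Fkbp1a −0.296 to 0.233, Fkbp9 −0.369 to 0.4, Fkbp14 −0.78 to 0.415, Ddx17 −0.073 to 0.149, Phb2 −0.034 to 0.541, Cyb5r3 −0.244 to 0.385 and Nr2f2 −0.251 to 0.391. Likewise the ranges were Hsd11b2 −0.008 to 0.453, Akr1c14 −0.034 to 0.946, Mt1 −0.722 to 0.055, Mt2 −0.706 to 0.074, Atp1b1 −0.645 to 0.926, Alox15 −1.651 to 0.821, Hoxa11 −0.029 to 0.223, C3 −1.168 to 0.879 and Igf1 −0.073 to 0.051. With limma on log2(TPM + 1), the turned values were Hsp90ab1 −0.02, Hspa8 −0.048, Ddx17 −0.023 and Atp1b1 0.059. With limma-voom, the turned values were Fkbp9 0.003 and Atp1b1 0.115. With the replicate block, Atp1b1 0.118 had turned. With the crossed replicate block, Atp1b1 0.118 had turned.

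Nr3c2 had the fewest counts of the 9, at 106 to 154 per library. With 2 samples a group, the 95% interval extended past a 2-fold difference for Nr3c2 and Pgrmc1.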
